A study of Rattus norvegicus with 24 samples.

Results

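The genes described here are 9 kinase genes of calcium signalling in the rat brain: the CaM kinase genes Camk2a, Camk2b, Camk2d, Camk2g and Camk4, and the protein kinase C genes Prkca, Prkcb, Prkce and Prkcz. They were chosen by name, as all probe sets whose symbol in the platform annotation is exactly 1 of these 9, which gave 9 of the 4736 genes with a probe set of their own and 25 of the 8799 probe sets on the array. Camk2d had 6 probe sets, Prkce 4, Camk2g and Prkcb 3 each, Camk2a, Camk2b, Camk4 and Prkcz 2 each, and Prkca 1. Of the 25 probe sets, 24 were tested. The Camk2g probe set U73503_at was left out because it was above the floor of the measurement (an intensity of 16.5) on only 2 arrays, at 16.6 and 16.9.

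CaM kinase II is a multi-subunit serine/threonine kinase that binds calcium-loaded calmodulin, phosphorylates itself and can stay active after calcium has fallen. Its alpha and beta subunits (Camk2a, Camk2b) dominate in neurons, where the kinase is a main protein of the postsynaptic density and is needed for long-term potentiation, while delta and gamma (Camk2d, Camk2g) are expressed in most tissues. CaM kinase IV (Camk4) is a nuclear kinase that phosphorylates CREB and is abundant in cerebellar granule cells. The protein kinase C family is divided by its activators: the conventional forms alpha and beta (Prkca, Prkcb) respond to calcium and diacylglycerol, the epsilon form (Prkce) to diacylglycerol without calcium, and the atypical zeta form (Prkcz) to neither.

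Total RNA of whole rat brain was measured on 24 single-colour oligonucleotide arrays, 1 per sample. Exposed rats breathed a volatile anaesthetic, 0.8% halothane or 1.0% isoflurane, for 90 min at a time, 2 times a day with 3 h of recovery in between. The groups were 5 exposures over 2.5 days and 10 exposures over 5 days of each agent (n = 3 per group), and controls (n = 12) that received 3 min of halothane just before perfusion with ice-cold saline. Every control brain had therefore met halothane briefly, no air-only group is among the samples, and the agents were given at different concentrations. The sources used here do not give strain, age, sex or the time from the last exposure to perfusion. Whether replicates are separate rats is not stated in the labels, and a p-value here rests on the spread among samples, part of which may be technical. In whole brain, fewer cells of a type and less RNA per cell cannot be told apart.

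All 24 arrays had a trimmed mean intensity between 150.1 and 150.2, medians ran from 53.5 to 64.9, and no 2 arrays were identical. Of 8 listed neuronal markers 5 were on the array, and Snap25, Nefl, Nefm, Nefh and Syt1 were above the floor on 24 of 24 arrays. The skeletal muscle genes Ckm, Myh1 and Acta1, listed as those of an absent tissue, were so too, and Tnnt3 was on 22 arrays. Being above the floor therefore does not by itself show that a transcript is present. How well a dim probe set reads its transcript was not tested either. Bacterial spike-in probe sets report on added control RNA and not on rat RNA. They were high on 9 arrays (5 controls and replicate 3 of each exposed group) and low on 15. Results that move with this level are given further on.

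None of the kinase probe sets passed the threshold (limma, adjusted p under 0.05 over 7389 probe sets) against control. After 5 halothane exposures 0 of 24 passed, where 0.0135% of all probe sets did, and 0 of 24 had an unadjusted p under 0.05, against 3.53% of all. After 10 halothane exposures 0 of 24 passed (0.0406% of all) and 2 had an unadjusted p under 0.05, against 7.52% of all. After 5 isoflurane exposures 0 of 24 passed (0% of all) and 1 had an unadjusted p under 0.05, against 2.14% of all. After 10 isoflurane exposures 0 of 24 passed (0% of all) and 1 had an unadjusted p under 0.05, against 9.05% of all. With the 4 exposed groups pooled, 0 of 24 passed (0% of all) and 2 had an unadjusted p under 0.05, against 8.44% of all. As shares of the 24 these unadjusted counts are 0%, 8.33%, 4.17%, 4.17% and 8.33%, and in no comparison with control did they exceed the share of all probe sets by more than the 4.17% that 1 probe set makes.

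The changes were also small. The median log2 fold change over the 24 probe sets was 0.04 after 5 and 0.05 after 10 halothane exposures, and 0.08 and 0.05 after 5 and 10 isoflurane exposures. Over all probe sets tested it was -0.01, -0.03, 0.01 and -0.00 in the same order. Higher than control were 13, 13, 18 and 14 of the 24 probe sets. Single probe sets ran from -0.33 to 0.28 and from -0.33 to 0.61 after 5 and 10 halothane exposures. After 5 and 10 isoflurane exposures they ran from -0.16 to 0.77 and from -0.22 to 0.54. The 95% interval of a log2 fold change of these kinases had a median half-width of 0.34 when 3 exposed arrays were set against the 12 controls. This interval is not adjusted for the number of probe sets, so changes of that size or larger could go uncalled. Camk2d, at 0.50 after 10 halothane exposures, was not called (adjusted p = 0.224 by limma).

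**Figure D1:**
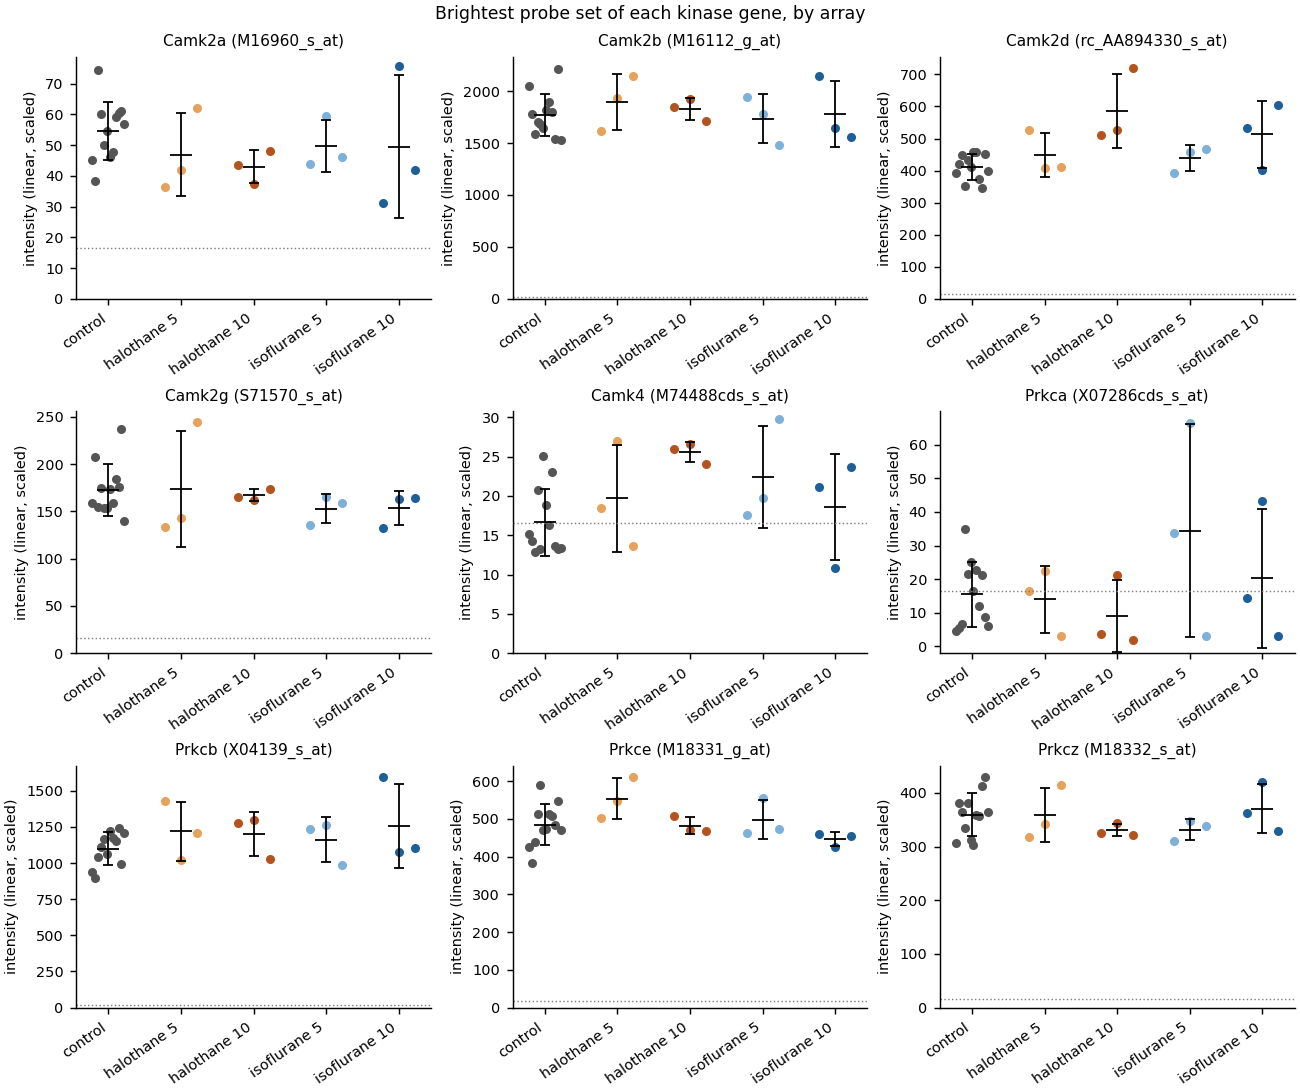
Intensity (linear, as scaled by the authors) of the brightest probe set of each kinase gene on all 24 arrays, by group; the long bar is the mean, the whiskers are 1 SD, and the dotted line is the floor of 16.5. Camk2d stood above all 12 controls on the 3 arrays of 10 halothane exposures, while Camk4 and Prkca lay near the floor.

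Camk2a, the alpha subunit of CaM kinase II, gave a dim signal, which by itself does not show that the transcript is scarce. Its brighter probe set, M16960_s_at, ranged from 38.5 to 74.4 in control, with a median of 55.8. It read 36.5, 41.9 and 62.1 after 5 halothane exposures and 43.7, 37.3 and 48.1 after 10. It read 44, 59.4 and 46 after 5 isoflurane exposures and 31.2, 75.7 and 41.8 after 10. All groups overlapped the controls, and the arrays of 10 isoflurane exposures included both the lowest and the highest value of this probe set. All 4 log2 fold changes were below 0, between -0.33 ± 0.22 (SE) after 10 halothane exposures and -0.13 ± 0.22 after 5 isoflurane exposures, and 0 passed (adjusted p = 0.74 and 1). The second Camk2a probe set, J02942_at, was above the floor on 6 of 12 control arrays and was below control in 3 of the 4 groups, from -0.33 to 0.14.

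Camk2b, the beta subunit, which ties the holoenzyme to actin filaments, was bright and steady. M16112_g_at ranged from 1530.2 to 2217.8 in control, with a median of 1741. Group means after exposure were 1898 ± 269 (SD, n = 3) for 5 and 1828 ± 106 for 10 halothane exposures, and 1736 ± 233 and 1782 ± 319 for isoflurane. The groups overlapped the controls throughout, and log2 fold changes ran from -0.03 to 0.10, with SEs of 0.12. M16112_at, which shares its source sequence with M16112_g_at by its name, ran from -0.05 to 0.17.

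Camk2d, the delta subunit, best known from heart muscle, gave the lowest p-value among the kinases after 10 exposures of either agent, but not after 5. Its brightest probe set, rc_AA894330_s_at, ranged from 344.7 to 459 in control, with a median of 415.3. The values were 527.8, 409 and 409.9 after 5 halothane exposures and 511.3, 527.4 and 719 after 10. The values were 391.3, 457 and 466.4 after 5 isoflurane exposures and 531.9, 400.4 and 605.9 after 10. All 3 arrays of 10 halothane exposures lay above every control, as did 2 of 3 after 10 isoflurane exposures and 1 of 3 in each 5-exposure group.

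The log2 fold change of Camk2d was 0.50 ± 0.12 (SE, 95% interval 0.24 to 0.75) after 10 halothane exposures, with a mean of 585.9 ± 116 (SD, n = 3) against 411.9 ± 40.4 (SD, n = 12). It did not pass the threshold over all probe sets (adjusted p = 0.224), where it ranked 14 by p. An exact two-sided permutation test of this probe set alone gave p = 0.0022, unadjusted, which is the smallest that 3 arrays against 12 allow. After 10 isoflurane exposures the log2 fold change was 0.30 ± 0.12 (adjusted p = 0.459). After 5 exposures it was 0.12 for halothane and 0.09 for isoflurane. Without replicate 3 of 10 halothane exposures, the array at 719, the log2 fold change was 0.34 (adjusted p = 0.602). Without replicate 3 of 10 isoflurane exposures, the array at 605.9, it was 0.17 (adjusted p = 0.764).

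The other 5 Camk2d probe sets did not show a change of this size in both 10-exposure groups. After 10 halothane exposures J05072_at was at 0.18, rc_AI009268_at at -0.04, L13406_s_at at 0.13, L13407_i_at at 0.22 and rc_AA925495_at at 0.36. After 10 isoflurane exposures they ran from -0.13 to 0.17. L13407_i_at and rc_AA925495_at were above the floor on 6 and 2 of the 12 control arrays, so their fold changes depend on the floor. After 10 halothane exposures rc_AA925495_at read 6.2, 1.4 and 38.6, against 0.9 to 20.5 in control, so its value of 0.36 rests on replicate 3 alone. J05072_at, rc_AI009268_at and L13406_s_at were above the floor on all control arrays. Camk2d is known to be spliced into many forms, and probe sets may read different ones, which the files do not resolve.

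**Figure D2:**
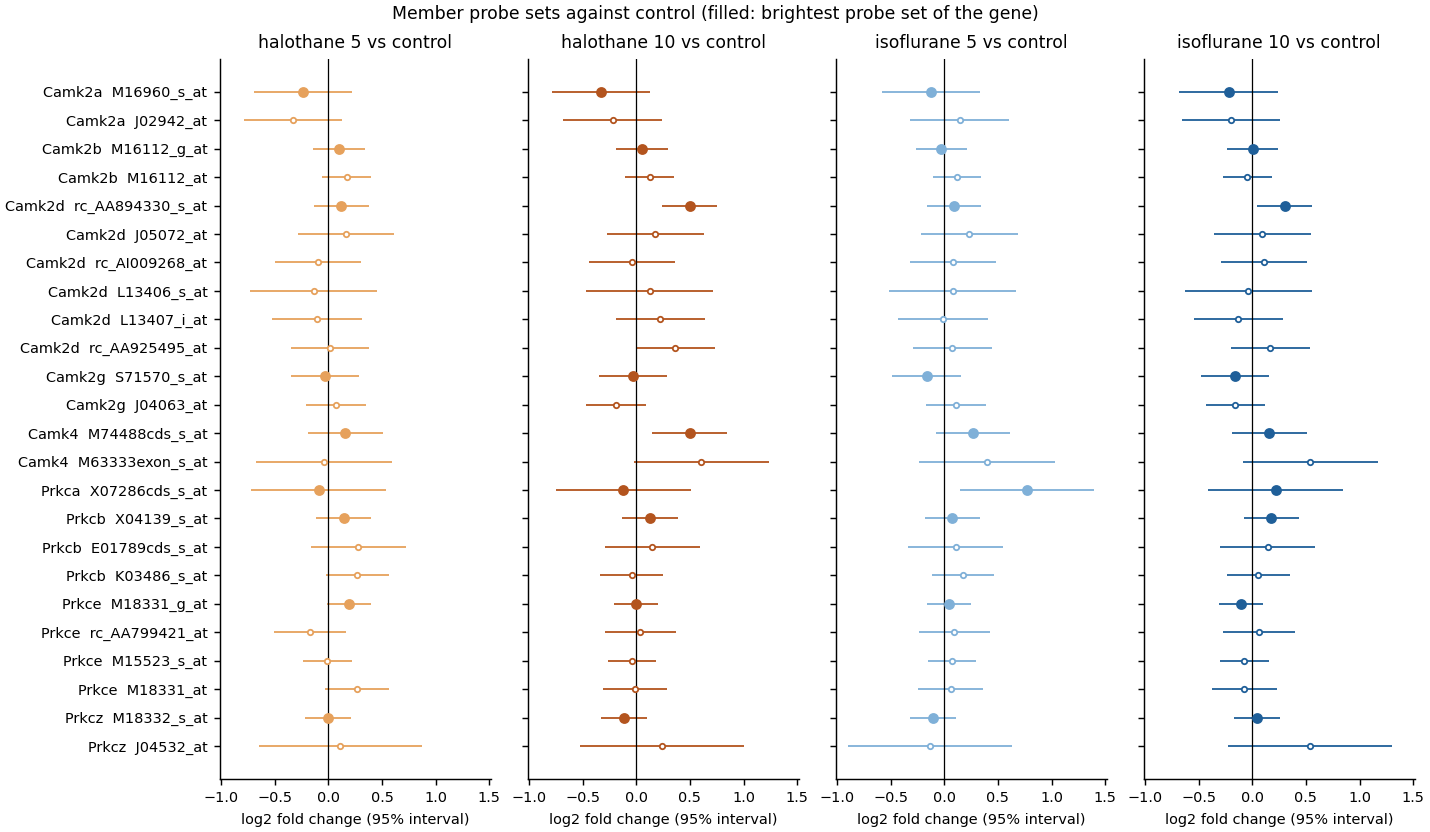
Log2 fold change against control with its 95% interval for all 24 kinase probe sets tested, in the 4 exposed groups; filled points are the brightest probe set of each gene and open points the others. The intervals that leave out 0 belong to Camk2d (0.50) and Camk4 (0.50) after 10 halothane exposures, Prkca (0.77) after 5 isoflurane exposures and Camk2d (0.30) after 10, and none of these passed after adjustment over all probe sets.

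The promoter window of Camk2d is shown because this gene had the lowest p-value of the set after 10 exposures of either agent. It is the 300-base window of the RefSeq promoter table, chr2:217698301-217698600 on the plus strand of GRCr8. The start the table uses lies 227 bases inside the RefSeq gene, so 277 of the 300 bases are within the annotated gene span. In the sequence capitals mark matches to the GC box GGGCGG on either strand.
Camk2d: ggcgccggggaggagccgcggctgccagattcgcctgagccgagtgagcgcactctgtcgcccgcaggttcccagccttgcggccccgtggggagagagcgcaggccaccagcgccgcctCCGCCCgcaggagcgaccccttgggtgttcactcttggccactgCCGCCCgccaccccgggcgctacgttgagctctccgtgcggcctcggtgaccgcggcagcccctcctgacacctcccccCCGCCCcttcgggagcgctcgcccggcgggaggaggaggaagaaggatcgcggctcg
This window has a GC content of 74.7%, 36 CpG dinucleotides and 3 GC boxes. RefSeq windows were found for 8 of the 9 genes, and Prkcb was not among them. The start used was the outer end of the gene in 1 of these 8, Camk4, and lay inside the gene in the others, so the windows describe the sequence around 1 annotated start each. GC content was above the median of all 33469 windows (51.7%) in 7 of the 8, the exception being Camk4 at 45.7% with 0 CpG. A GC box occurred in 6 of 8, against 33.1% of all windows, and TATAAA, searched on both strands, in 0 of 8, against 14.2%. TGACG, the core of a cAMP response element, occurred only in the Camk2a window, 2 times, against 21.2% of all windows. These are counts of letters and not binding sites.

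Camk2g, the gamma subunit, which carries calcium-calmodulin to the nucleus in neurons, did not pass in any group. S71570_s_at ranged from 139.4 to 237 in control, with a median of 166.5. It read 165.8, 162.4 and 174.2 after 10 halothane exposures and 132.8, 163.6 and 164.1 after 10 isoflurane exposures, and was spread most after 5 halothane exposures, at 133.1, 143.1 and 244.4. Log2 fold changes ran from -0.16 to -0.03 with SEs of 0.15. J04063_at lay below every control on 2 of 3 arrays after 10 halothane exposures (118.4, 111.1 and 157.3 against 122.9 to 174.1), with a log2 fold change of -0.19 (adjusted p = 0.753).

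Camk4 lay near the floor. Its brighter probe set, M74488cds_s_at, ranged from 12.9 to 25.1 in control, with a median of 14.7, and was above the floor on 4 of 12 control arrays. After 10 halothane exposures it read 26, 26.6 and 24.1, with 2 of 3 arrays above every control. The log2 fold change was 0.50 ± 0.17 (adjusted p = 0.436, exact permutation p = 0.0044 unadjusted), a value that depends on the floor. After 5 halothane exposures it read 18.5, 27 and 13.6, after 5 isoflurane exposures 17.6, 19.8 and 29.8, and after 10 isoflurane exposures 21.2, 10.9 and 23.7, all overlapping the controls. The second probe set, M63333exon_s_at, was above the floor on 2 of 12 control arrays. It read 14.9, 11.4 and 64.9 after 10 halothane exposures and 10.8, 19 and 49.4 after 10 isoflurane exposures, so that its log2 fold changes of 0.61 and 0.54 rest mainly on replicate 3 of each group.

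Prkca, a conventional protein kinase C, also lay near the floor on its only probe set, X07286cds_s_at, which ranged from 4.6 to 34.9 in control, with a median of 14.35, under the floor of 16.5. The values were 16.6, 22.5 and 3 after 5 and 3.6, 21.3 and 1.9 after 10 halothane exposures. The values were 33.7, 66.5 and 3 after 5 and 14.3, 43.2 and 3.2 after 10 isoflurane exposures. After 5 isoflurane exposures 1 array lay above and 1 below every control. The log2 fold change was 0.77 ± 0.30 (adjusted p = 1), with an exact permutation p of 0.0571, unadjusted. This was the largest log2 fold change against control among the 24 kinase probe sets, and the 3 arrays had an SD of 31.8 around a mean of 34.4. Its size depends on the floor and on single arrays: it was 0.27 without replicate 2, the array at 66.5, and 1.28 without replicate 3, the array at 3 (adjusted p = 1 in both).

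Prkcb, the conventional form abundant in forebrain neurons, was bright. X04139_s_at ranged from 894.3 to 1243 in control, with a median of 1131. It read 1431.4, 1024.1 and 1205.7 after 5 and 1277.9, 1297.7 and 1026.8 after 10 halothane exposures. It read 1236.6, 1263.3 and 984 after 5 and 1593.2, 1079.6 and 1103 after 10 isoflurane exposures. Group means lay above the control mean in all 4 groups, with 5 of 12 exposed arrays above every control, but the log2 fold changes of 0.14, 0.13, 0.08 and 0.18 were about the size of their SE of 0.12. The other 2 probe sets gave 0.28, 0.15, 0.11 and 0.14 (E01789cds_s_at) and 0.27, -0.04, 0.17 and 0.06 (K03486_s_at), and none of the 12 values passed. K03486_s_at read 494.3, 550.8 and 507.7 after 5 halothane exposures, against 352.9 to 525.1 in control, with 1 array above every control.

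Prkce, the epsilon form, had 4 probe sets above the floor on every array. M18331_g_at ranged from 383.4 to 588.2 in control, with a median of 479.3. It read 502.8, 547.2 and 610.5 after 5 halothane exposures, the highest group mean (553.5 ± 54.1), and 506.8, 471.3 and 467.4 after 10. It read 462.5, 556.1 and 473.9 after 5 and 459.4, 425.5 and 455.1 after 10 isoflurane exposures. The log2 fold changes were 0.20 ± 0.10, -0.00, 0.04 and -0.11, with 0 past the threshold. Over its 4 probe sets the values ran from -0.17 to 0.27 after 5 halothane exposures, while after 10 they lay between -0.04 and 0.04. For M18331_g_at the 95% interval after 10 halothane exposures, -0.21 to 0.21, was among the narrowest of the set.

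Prkcz, the atypical form, did not pass either. M18332_s_at ranged from 302.8 to 429.8 in control, with a median of 362.2. It read 318.8, 343 and 415 after 5 and 326.3, 343.1 and 321.4 after 10 halothane exposures, and 310.1, 347.5 and 337.7 after 5 and 361.9, 419.8 and 329.8 after 10 isoflurane exposures. Every exposed array lay within the control range, and log2 fold changes ran from -0.11 to 0.05 with SEs of 0.10. The dim second probe set, J04532_at, was at 0.54 ± 0.37 after 10 isoflurane exposures (adjusted p = 0.702), with 1 array at 71.7 above every control.

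Between the agents and between the exposure numbers 0 of the 24 kinase probe sets passed as well. Halothane against isoflurane called 0% of all probe sets and gave 1 kinase probe set at an unadjusted p under 0.05, against 3.92% of all. That was Prkca, with a log2 difference of -0.60 (95% interval -1.16 to -0.04, adjusted p = 1). For 10 against 5 halothane exposures, 0.0135% of all probe sets passed, and 1 kinase probe set had an unadjusted p under 0.05, against 3.76% of all. That was Camk2d, with a log2 difference of 0.38 (95% interval 0.06 to 0.70, adjusted p = 1). For 10 against 5 isoflurane exposures, 0% of all passed, and 0 kinase probe sets had an unadjusted p under 0.05, against 3% of all. Camk2d was there at 0.21 (95% interval -0.11 to 0.53). The interaction of agent and exposure number called 0% of all and gave 0 kinase probe sets at an unadjusted p under 0.05, against 2% of all. For Camk2d the interaction was 0.17 with a 95% interval of -0.29 to 0.62, so the effect of the exposure number was not shown to differ between the agents, within those bounds.

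Kinase probe sets were also compared between arrays of high and low spike-in level. Within groups, 5 of 24 kinase probe sets (20.8%) differed between arrays of high and low level at an adjusted p under 0.05, where 20% of all probe sets did, a share near that of the kinases. The Prkcb probe set E01789cds_s_at ranged from 256.3 to 413.5 on the 5 high controls and from 390.9 to 599 on the 7 low controls, and on the exposed arrays from 359.9 to 438 and from 536.1 to 602.9. The high arrays were lower, with a log2 difference of -0.58 (adjusted p = 8.38e-06). Camk2d L13406_s_at ranged from 34.5 to 54 on high controls and from 56 to 98.6 on low ones, with a log2 difference of -0.74 (adjusted p = 6.57e-05). On the exposed arrays it ranged from 40.7 to 45.5 and from 52.3 to 78.4, again with no overlap.

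Higher on the high arrays were Prkcz J04532_at (0.68, adjusted p = 0.0177), Camk4 M63333exon_s_at (0.57, adjusted p = 0.0173) and Camk2d rc_AA925495_at (0.34, adjusted p = 0.0121), all of them dim. Among the 12 controls alone these 3 did not pass (exact permutation, adjusted p = 0.478, 0.98 and 0.455 over the kinase probe sets). Camk4 M63333exon_s_at had means of 12.2 on the 5 high and 12.4 on the 7 low controls, and the exposed high arrays are all replicate 3. Prkcb E01789cds_s_at and Camk2d L13406_s_at did pass among the controls (exact permutation, adjusted p = 0.0303 for both). Prkcz J04532_at and Camk4 M63333exon_s_at are the probe sets above in which replicate 3 of a 10-exposure group stood highest. Other probe sets of the same genes did not pass: Prkcb X04139_s_at was at -0.13 (adjusted p = 0.25) and Camk2d rc_AA894330_s_at at 0.08 (adjusted p = 0.499). When the spike-in level entered the fit as a block, the log2 fold change of Camk2d rc_AA894330_s_at was 0.50 after 10 halothane exposures (adjusted p = 0.141), and among low spike-in arrays alone it was 0.33 (adjusted p = 0.445).

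**Figure D3:**
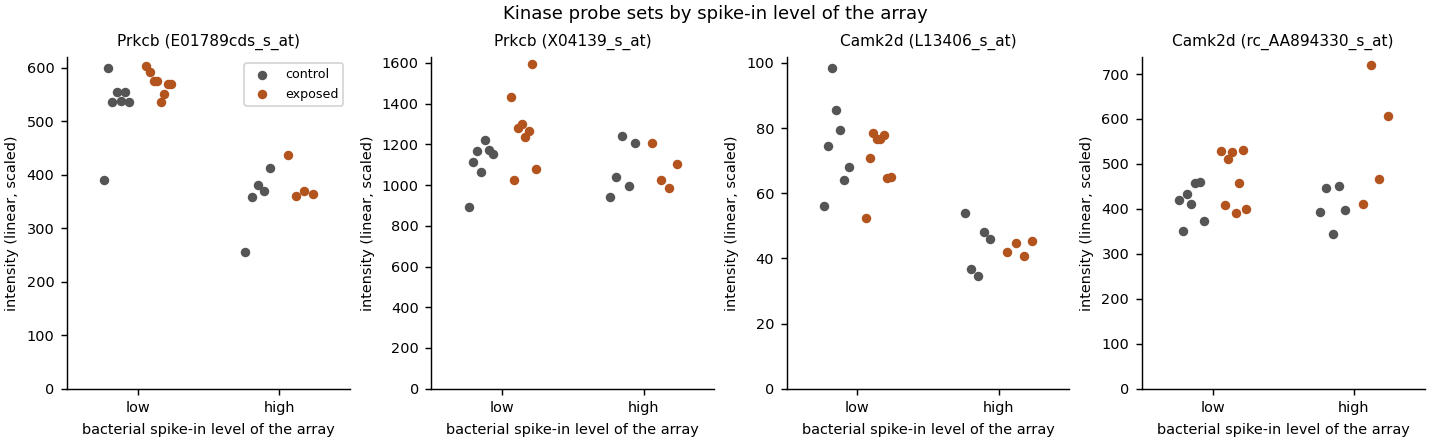
Intensity (linear, as scaled by the authors) of 2 Prkcb and 2 Camk2d probe sets on the 15 arrays with a low and the 9 with a high bacterial spike-in level; each point is an array, control or exposed. Prkcb E01789cds_s_at and Camk2d L13406_s_at were lower on the high arrays (log2 differences of -0.58 and -0.74), while the brightest probe sets of the same genes overlapped between the levels.

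Cerebellar markers are given beside Camk2d because both were highest on the same arrays, although none of the markers passed the threshold. Of 7 listed cerebellar markers 3 were measured: Gabra6, the GABA-A receptor subunit of granule cells, and the calcium-binding protein genes Calb1 and Pvalb, which mark Purkinje cells and interneurons (Calb1 and Pvalb are also expressed in other brain regions). All 3 were higher in each exposed group, with a median log2 fold change of 0.31 and 0.74 after 5 and 10 halothane exposures and of 0.30 and 0.49 after 5 and 10 isoflurane exposures, and 0 passed the threshold in any of them. After 10 halothane exposures Gabra6 was at 0.98, Pvalb at 0.74 and Calb1 at 0.64 (adjusted p = 0.613, 0.422 and 0.39).

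The summed intensity of these 3 markers ranged from 996.6 to 2526.3 in control, with a median of 1818. It was 2439.8, 2792.7 and 3452 after 10 halothane exposures and 2691.3, 1614.3 and 3252.5 after 10 isoflurane exposures. Replicate 2 of 10 isoflurane exposures was the lowest exposed array in this sum, and its Camk2d value of 400.4 lay within the control range. The arrays with the highest sums, replicate 3 of each 10-exposure group, also had the highest Camk2d values, 719 and 605.9. 

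Among the 12 controls, which had no repeated exposure, Camk2d rc_AA894330_s_at was set against the mean log2 intensity of the 3 markers. Pearson's r was 0.68 (permutation p = 0.0168, adjusted 0.0756) and Spearman's rho 0.71 (permutation p = 0.0134, adjusted 0.0602), adjusted by Benjamini-Hochberg over the 9 genes compared. Without controls 10 and 12, the 2 arrays farthest from the marker median and both of high spike-in level, r was 0.55. Among the 7 low spike-in controls r was 0.92, and the r of neither subset was tested. The 5 high spike-in controls, too few for a correlation here, had marker sums of 996.6, 1101.7, 1356.5, 1971.5 and 2128.3 and Camk2d values of 344.7, 398.6, 447.3, 394 and 451.9 in the same order, so that control 3 had a Camk2d value near the highest at a middle marker sum. Camk2b gave r = 0.69 (permutation p = 0.0138, adjusted 0.0756), falling to 0.48 without the 2 farthest arrays and to 0.31 among the 7 low spike-in controls. Camk2a gave r = -0.56 (permutation p = 0.0616, adjusted 0.185), and -0.51 among the low spike-in controls. Camk4, near the floor, gave 0.05, and -0.51 among the low spike-in controls. Camk2g, Prkca, Prkcb, Prkce and Prkcz lay between -0.26 and 0.25 over the 12 controls. For 0 of 9 genes did the adjusted p pass. With the marker mean as a covariate in the limma fit, chosen after seeing the data, the log2 fold change of Camk2d after 10 halothane exposures was 0.26 (adjusted p = 0.989), and 0.14 after 10 isoflurane exposures. The markers were themselves higher in the exposed groups, so exposure and marker signal cannot be told apart in this fit.

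Blood and choroid plexus markers also lay off the control level in the 10-exposure groups, with 0 members past the threshold. All 3 measured blood markers of 5 listed were lower, with medians of -0.91 after 10 halothane and -0.86 after 10 isoflurane exposures. Their summed intensity ranged from 374.8 to 824.2 in control, from 276 to 295.2 after 10 halothane and from 254.9 to 434 after 10 isoflurane exposures. Of the 4 choroid plexus markers, 4 were higher after 10 halothane and 3 after 10 isoflurane exposures (medians 0.45 and 0.37), with sums from 3008.2 to 4904 in control, from 4271.5 to 6848.6 and from 4388.1 to 5722. All 6 measured oligodendrocyte and myelin markers of 7 listed were lower after 10 halothane exposures (median -0.24), and 2 were higher and 4 lower after 10 isoflurane exposures (median -0.01), with 0 past the threshold. Their sums ranged from 8351.1 to 11990.3 in control, from 7910.6 to 10764.2 and from 9497.6 to 11711.6. Of 7 genes listed for forebrain 5 were measured: Penk, Drd2, Adora2a, Neurod1 and Neurod2. In both 10-exposure groups 2 were higher and 3 lower (medians -0.17 and -0.09), with 0 past the threshold. Their sums ranged from 1057.7 to 1522.8 in control, from 1354.6 to 1803.9 and from 1111.3 to 1938.1. Neurod1 was the brightest of them, with a mean intensity of 616.8 over the 24 arrays. It is not confined to forebrain, so these sums do not read forebrain alone. The part of these tissues in the kinase values was not tested.

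**Figure D4:**
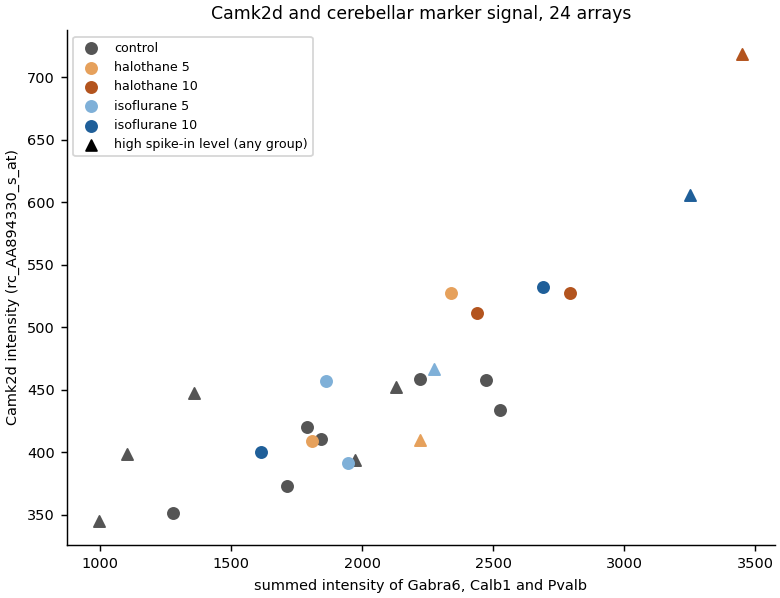
Camk2d intensity (rc_AA894330_s_at) against the summed intensity of the cerebellar markers Gabra6, Calb1 and Pvalb on the 24 arrays (both linear, axes not starting at 0); colours are groups and triangles the arrays with a high spike-in level. Replicate 3 of 10 halothane exposures (719) and of 10 isoflurane exposures (605.9) stand highest on both axes.

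Genes around the kinases were counted in lists by function, 1 probe set per gene, and 0 of their 70 measured members passed the threshold in any of the 8 comparisons of groups. At an unadjusted p under 0.05, 6 were higher and 3 lower after 10 halothane exposures (12.9% of the 70, against 7.52% of all probe sets), and 9 were higher and 2 lower after 10 isoflurane exposures (15.7%, against 9.05% of all). After 5 exposures the counts were 0 higher and 1 lower for halothane (1.43%, against 3.53% of all) and 1 higher and 0 lower for isoflurane (1.43%, against 2.14% of all). Among 12 other CaM kinases and inhibitors 3 were higher and 9 lower after 10 halothane exposures (median -0.10, against -0.03 over all probe sets). Camkv, a kinase-like protein of synapses, was at -0.34. After 10 isoflurane exposures Camk1g, a CaM kinase I gene, was at -0.68 ± 0.21 (adjusted p = 0.329), with a list median of 0.02. The CaM kinase II inhibitor Camk2n1 was at -0.35 ± 0.57 after 10 halothane and -0.03 after 10 isoflurane exposures.

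Calmodulin, calmodulin-binding and other calcium-binding protein genes were more often above control than below. All 10 measured were higher after 5 halothane exposures (median 0.10) and 8 of 10 in each of the other 3 groups (medians 0.14, 0.08 and 0.18), with 0 past the threshold. Calb1 and Pvalb, which are also the cerebellar markers above, gave the largest values. The calmodulin gene Calm2 was at 0.18 after 10 halothane and 0.21 after 10 isoflurane exposures, and neurogranin (Nrgn), a calmodulin-binding substrate of protein kinase C, at -0.28 and -0.02. Pcp4, a calmodulin-binding peptide gene, was at 0.19 and 0.23.

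Upstream of protein kinase C, 19 genes of phospholipase C, diacylglycerol kinases and IP3 signalling were measured. Of these 15, 11, 12 and 15 were higher and 4, 8, 7 and 4 lower after 5 and 10 halothane and 5 and 10 isoflurane exposures (medians 0.12, 0.02, 0.11 and 0.13). Itpr1, an IP3 receptor gene read by the brightest of its 5 probe sets, was at 0.62 ± 0.18 after 10 halothane exposures (adjusted p = 0.331) and 0.46 after 10 isoflurane exposures. Plcb4, a phospholipase C gene, was at 0.51 and 0.42, and the diacylglycerol kinase Dgkg at 0.52 and 0.54. Itpka, an IP3 kinase gene, was lower after 10 halothane exposures, at -0.36 (adjusted p = 0.551). After 10 isoflurane exposures Dgkz was at 0.34 and Plcg1 at 0.36, against 0.01 and -0.07 after 10 halothane exposures. With both exposure numbers together, halothane minus isoflurane was -0.27 for Dgkz and -0.32 for Plcg1 on the log2 scale (adjusted p = 1 for both by limma).

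Among 17 substrates and anchors the glutamate receptor subunit Grin2a was at -0.76 ± 0.29 after 10 halothane exposures (adjusted p = 0.533), Gria1, phosphorylated by CaM kinase II and protein kinase C, at 0.47 (adjusted p = 0.631), and Grin2b, which binds CaM kinase II, at -0.27 after 10 isoflurane exposures (adjusted p = 0.459). Marcks, a major protein kinase C substrate, was at -0.34 after 5 halothane exposures (adjusted p = 1) and between -0.07 and 0.05 elsewhere. Of the 2, 3 and 6 probe sets of Grin2a, Gria1 and Marcks, only the brightest of each gene is given. The list medians of calcineurin (3 of 7 genes measured), other protein kinase C genes (3 of 9) and protein kinase A (6 of 6) lay between -0.10 and 0.16 after 10 exposures. Of the protein kinase C genes outside the set, Prkcd was at -0.06 after 10 halothane and -0.13 after 10 isoflurane exposures.

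**Figure D5:**
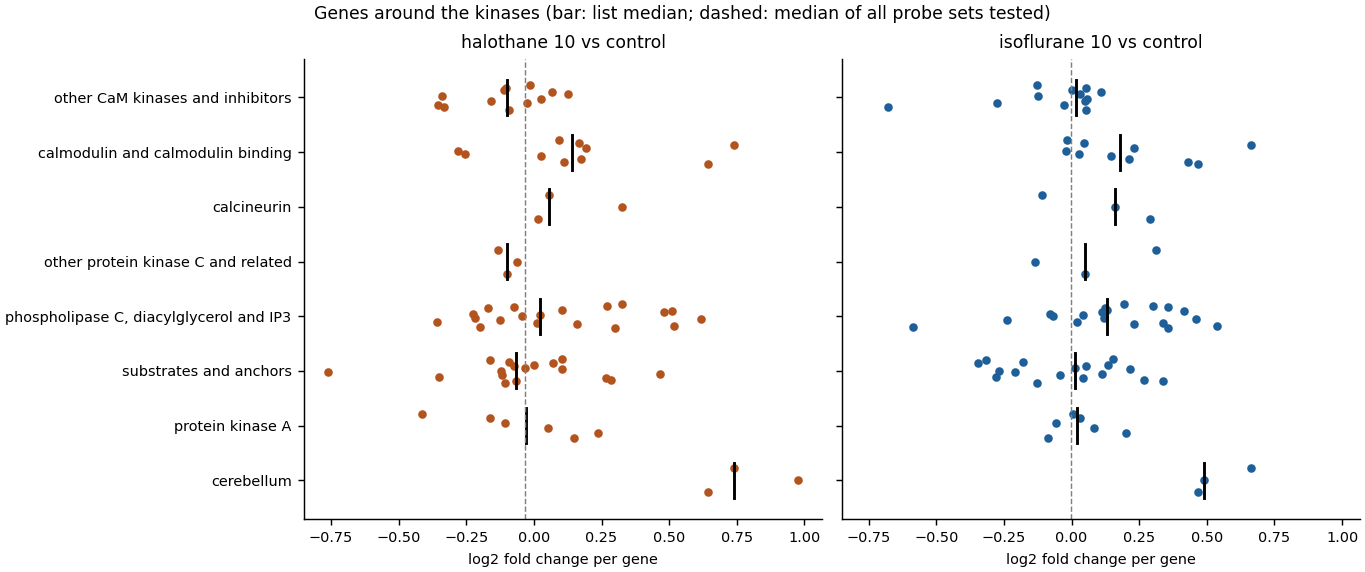
Log2 fold change of each measured gene of the lists around the kinases, and of the 3 cerebellar markers, after 10 halothane and 10 isoflurane exposures; black bars are list medians and dashed lines the median of all probe sets tested (-0.03 and -0.00). The cerebellar list stands farthest from the rest, with medians of 0.74 and 0.49.

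The genes nearest to a kinase over the 24 arrays were found by the mean absolute difference of log2 intensity, each probe set centred on its control mean. Only probe sets that varied at least as much as the kinase were candidates. For Camk2d the nearest were the cannabinoid receptor gene Cnr1 (0.133), Rev1 (0.136) and the splicing factor gene Srsf2 (0.138), where the median of 4028 candidates was 0.377. For Prkcb they were the transcription factor gene Lhx2 (0.0837), the autophagy gene Becn1 (0.107) and the calcium pump gene Atp2b2 (0.115). For Camk2b they were Klhdc3 (0.0998), Mcrs1 (0.112) and Napa (0.116). The nearest of many candidates lie under the candidate median by selection, and whether these genes vary together with the kinases was not tested.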

How the data were processed

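The authors deposited linear intensities, 1 for each probe set on each array. The sources used here do not state how probes were summarised and arrays scaled. Every array has nearly the same trimmed mean, and that scaling was kept. Intensities under 16.5 (the 25th percentile) were raised to 16.5 before log2 was taken, so changes of dim genes depend on this floor. The 59 control probe sets were left out, as were probe sets above 16.5 on fewer than 3 arrays, leaving 7389. All 24 arrays in 5 groups entered 1 fit (limma 3.58.1, R 4.3.3; eBayes with intensity trend, two-sided). P-values of limma were adjusted by Benjamini-Hochberg over the 7389 probe sets, and a call needed an adjusted p under 0.05. SE is that of the moderated fit. Exact permutation tests used all 455 splits of 3 against 12 arrays, or all 792 splits of 5 against 7 controls for the spike-in level. Correlations used 100000 permutations. The scripts were tested on simulated data. The brightest probe set stands for a gene, and arrays are given for these and for any other with an unadjusted p under 0.05. Probe names are the platform's; a probe set whose name ends in _s_at may match several transcripts. Entrez identifiers of 9 of 9 genes matched the RefSeq table of GRCr8, used for names and promoter windows. The genes, lists and tests were chosen with earlier results of these data known. Alternatives were other normalizations, floors, filters, array weights, subsets of groups, blocks and each array left out. The number of arrays limits the precision.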

Additional observations from a re-analysis of the deposited data

How the results depend on the processing

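In 38 other fits, 0 kinase probe sets passed the threshold in any of the 9 comparisons for which a fit could be made (340 counts, all 0), and 0 of 1676 fold changes of the brightest probe sets became a call. At an unadjusted p under 0.05 the count of kinase probe sets ranged from 0 to 5 after 5 and from 1 to 5 after 10 halothane exposures, and from 0 to 5 after 5 and from 0 to 2 after 10 isoflurane exposures. The share of all probe sets at that unadjusted p was not counted in these fits, so these counts cannot be read as a result about the kinases. The log2 fold change of Camk2d after 10 halothane exposures was above 0 in 38 of 38 fits, from 0.26 with the cerebellar marker covariate to 0.59 without replicate 1 of that group, with adjusted p from 0.0944 to 0.989. Camk2a stayed below control after 10 halothane exposures in 37 of 37 fits, from -0.41 to -0.03. Prkca after 5 isoflurane exposures ranged from 0.27 to 1.28. Values near 0 changed sign between fits without a call, such as Camk2b after 10 isoflurane exposures (-0.14 to 0.10). Pairing by replicate number needed a correlation over 0.1 in every same-numbered pair. Control with exposed arrays did not meet this (4 of 12 pairs, all of replicate 3), nor did 5 with 10 halothane exposures (lowest 0.0957). Among exposed groups 16 of 18 pairs did. The pairs of 5 with 10 isoflurane exposures met it (0.15, 0.30 and 0.46), and there the block gave 0 calls, as without it. Between the agents, 5 with 5 exposures did not meet it (lowest 0.0870), while the other pairings did (lowest 0.111). Halothane against isoflurane was fitted unpaired above, and with the block it also gave 0 kinase calls. Replicate 3 of each exposed group shares the high spike-in level. With the replicate number as a block, over replicates 1 to 3 of each group, 0 kinase probe sets passed and Camk2d was at 0.46 after 10 halothane exposures (adjusted p = 0.204). The covariate fit, the spike-in comparison among kinases and the relation to cerebellar markers were added after seeing the data.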
